A study of Rattus norvegicus with 9 samples.

Results

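A set of 7 genes of the excitatory synapse were followed in male Sprague-Dawley rats, in the dorsal part of the hippocampus: 3 NMDA receptor subunit genes (Grin1, Grin2a and Grin2b), 2 AMPA receptor subunit genes (Gria1 and Gria2), the kinase gene Camk2a and the scaffold gene Dlg4. They were chosen by their Ensembl identifiers, 7 of the 32545 listed in the count files, and all 7 were among the 14463 genes with enough reads to be tested. The symbols come with the selection rule. The reference tables used here hold 0 rat Ensembl identifiers, so the pairing of symbol and identifier was not checked against an annotation, and markers of hippocampal cell types could not be read. Messenger RNA was sequenced from rats of 8 weeks that had either control rearing (4 rats) or early-life adversity (ELA, stressful conditions in infancy; 5 rats), and none had been through behavioural testing. Each rat gave 1 library, so the replicates are separate animals. The labels name no litter, and every rat was treated as independent. The labels do not describe how the adversity was produced.

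Glutamate is the main excitatory transmitter of the hippocampus. AMPA receptors carry most of the fast current at its synapses, while NMDA receptors pass calcium when the postsynaptic cell is depolarised and glutamate is bound at the same time. GluN1, encoded by Grin1, is required in every NMDA receptor and combines with GluN2 subunits. GluN2A and GluN2B, encoded by Grin2a and Grin2b, give receptors with faster and slower decay, and the share of GluN2A is known to rise as the forebrain matures after birth. Calcium entering through these receptors activates CaMKII, whose alpha subunit is encoded by Camk2a, and the scaffold protein PSD-95, encoded by Dlg4, holds receptors in the postsynaptic density.

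Reads assigned to genes numbered 11049282 to 17089188 per library. Each library held at least 370 reads of every one of the 7 genes, the lowest being Grin2b in ELA replicate 4. Levels are given as CPM, a gene's reads relative to the TMM-scaled size of the library. CPM is not corrected for transcript length, so levels are compared between rats and not between genes. Some libraries stand apart over the whole set of genes: 6 genes were called between the rearing groups with every library, but 130 without control replicate 1 and 148 without ELA replicates 4 and 5 together. ELA replicates 4 and 5 had the fewest reads, and the largest share of records aligned to several places (19.9% and 21.1%, against 14.3 to 18.7% in the other libraries). By the chi-square of their read counts over all genes, per degree of freedom, these libraries were nearer to several libraries of the other rearing group than to most of their own. Control replicate 1 was at 4.07 to 5.15 from ELA replicates 1 to 3 and at 10.1 to 11.6 from the other controls. ELA replicates 4 and 5 were at 7.62 to 10.7 from control replicates 2 to 4 and at 12.8 to 21.9 from ELA replicates 1 to 3. Single-gene differences that move by over 1.5 times or turn without a library are given with each gene.

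None of the 7 genes passed the test between ELA and control rats (0 of 7 at an adjusted p under 0.05 by edgeR's quasi-likelihood test with Benjamini-Hochberg adjustment over all genes, against 0.0415% of all genes tested). At an unadjusted p under 0.05 the count was also 0 of 7, against 9.4% of all genes, and the DESeq2 and limma-voom tests called 0 as well. For all 7 genes the ELA and control rats overlapped, where 3.04% of all genes had groups that did not overlap. The fitted log2 fold change was below 0 for 6 of the 7 genes, against 48.7% of all genes. The median log2 fold change was -0.08 over the 7 genes and 0.0035 over all genes, and the median absolute value was the same to 2 decimals (0.08 in both).

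**Figure D1:**
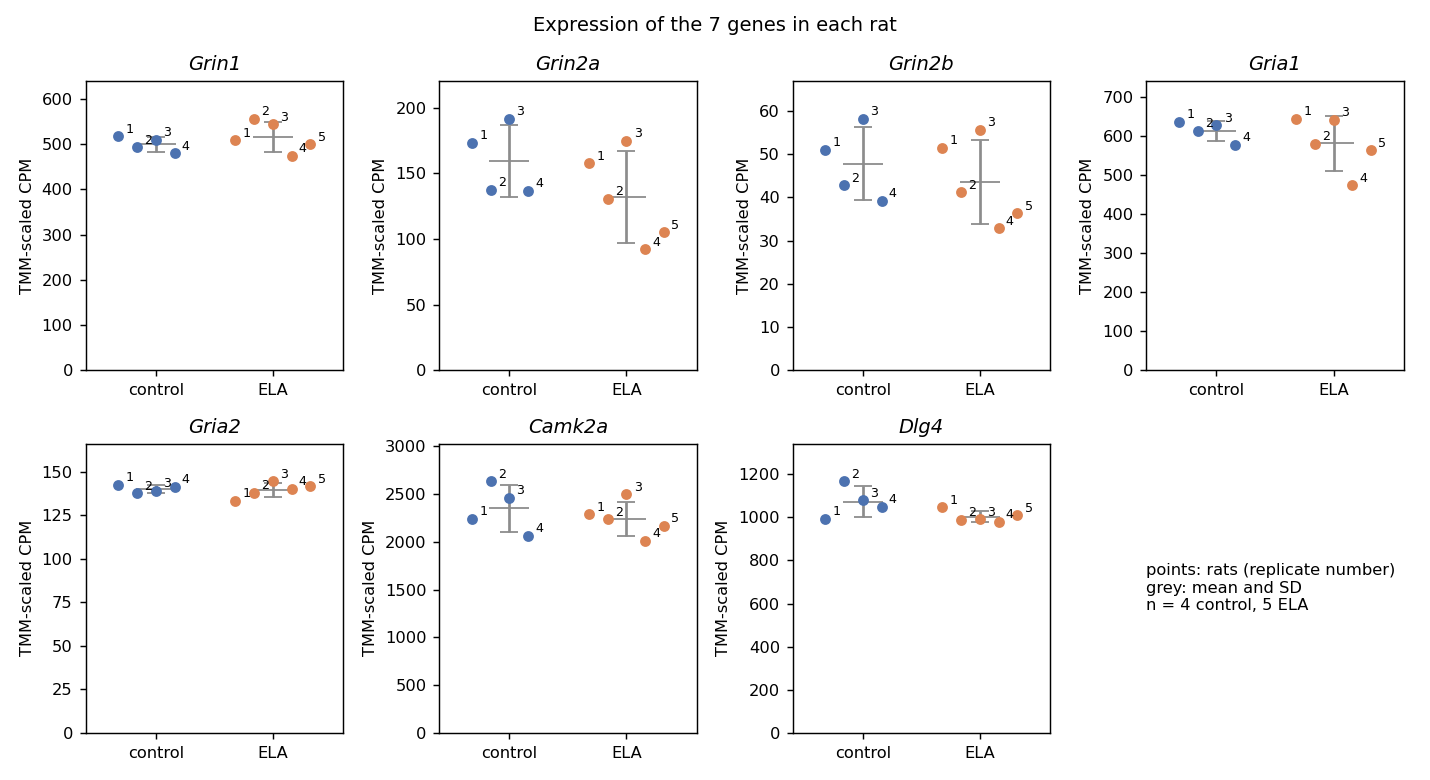
TMM-scaled CPM of each gene in each rat, in 1 panel per gene, with control rats in blue and ELA rats in orange. Numbers beside the points are replicate numbers, and grey marks show the mean and SD (n = 4 and 5). The groups overlap in every panel, and Grin2a ranges from 92.1 to 192 CPM while Gria2 stays between 133 and 144 CPM.

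Grin1 (ENSRNOG00000011726), the gene of the obligatory NMDA receptor subunit, was nearly level across rats. Control replicates 1 to 4 had 517, 493, 509 and 479 CPM, and ELA replicates 1 to 5 had 509, 556, 544, 474 and 499.7 CPM. The 2 highest rats and the lowest rat were all in the ELA group. Controls averaged 499.6 ± 16.7 CPM and ELA rats 516 ± 33.2 CPM (SD, n = 4 and 5); the log2 fold change was 0.05 (SE, the standard error, 0.058, edgeR adjusted p = 0.882). The 95% interval ran from 0.947-fold to 1.13-fold. The log2 fold change was 0.02 without ELA replicate 2, 0.03 without control replicate 4 or ELA replicate 3, 0.08 without ELA replicate 4 and 0.11 without ELA replicates 4 and 5 (edgeR unadjusted p = 0.0821, adjusted p = 0.318).

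Grin2a (ENSRNOG00000033942), the gene of the GluN2A subunit, varied most. Its level was 173, 137, 192 and 136.5 CPM in control replicates 1 to 4. In ELA replicates 1 to 5 it was 158, 131, 175, 92.1 and 105 CPM. ELA replicates 4 and 5 lay below every control rat, whereas the other 3 ELA rats lay among or just below the controls. The means were 159.7 ± 27.4 and 132 ± 34.7 CPM (SD, n = 4 and 5); the log2 fold change was -0.27 (SE 0.19, edgeR adjusted p = 0.74). The interval reached from 0.616-fold to 1.11-fold, the widest of the 7 genes, so a fall of more than 1.5-fold was not excluded for Grin2a. Without ELA replicates 4 and 5 together, the log2 fold change was -0.05 (edgeR adjusted p = 0.901), and it was -0.17 without control replicate 3 or ELA replicate 4.

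Grin2b (ENSRNOG00000008766), the gene of the GluN2B subunit, followed the same order of rats closely. Control replicates 1 to 4 had 51.1, 42.8, 58.2 and 39.2 CPM, and ELA replicates 1 to 5 had 51.4, 41.2, 55.6, 32.9 and 36.3 CPM. Again the lowest rats were ELA replicates 4 and 5, and the highest was control replicate 3. The means were 47.8 ± 8.53 and 43.5 ± 9.74 CPM (SD, n = 4 and 5); the log2 fold change was -0.13 (SE 0.166, edgeR adjusted p = 0.89). Without ELA replicates 4 and 5 the sign turned, to a log2 fold change of 0.05. With 1 library left out it was nearest to 0 without control replicate 3 (-0.02), ELA replicate 4 (-0.05) or ELA replicate 5 (-0.07), and farthest without control replicate 4 (-0.22), ELA replicate 1 (-0.20) or ELA replicate 3 (-0.23).

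Among the AMPA receptor genes, Gria1 (ENSRNOG00000045816) encodes GluA1, a subunit known for its delivery to synapses during potentiation. It was at 637, 613, 627 and 578 CPM in control replicates 1 to 4. ELA replicates 1 to 5 were at 644, 580.1, 642, 474 and 564 CPM. ELA replicate 4 was lowest by a wide margin and the highest rat was also an ELA rat. The means were 614 ± 25.6 and 581 ± 69.7 CPM (SD, n = 4 and 5), and the log2 fold change was -0.08 (SE 0.083, edgeR adjusted p = 0.85). It was -0.01 without ELA replicate 4, 0.02 without ELA replicates 4 and 5, and -0.12 without ELA replicate 1.

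Gria2 (ENSRNOG00000024629) encodes GluA2, the subunit that makes AMPA receptors nearly impermeable to calcium once its transcript has been edited. It had 142, 137.5, 139 and 141 CPM in control replicates 1 to 4. ELA replicates 1 to 5 had 133, 138, 144, 140.1 and 141 CPM. All 9 rats lay within a 1.08-fold range, and ELA replicates 4 and 5, the lowest rats for Grin2a and Grin2b, lay within the range of the controls here. The log2 fold change was -0.01 (SE 0.045, edgeR adjusted p = 0.985), and the 95% interval, 0.929-fold to 1.06-fold, was the narrowest of the 7 genes. With 1 library left out it stayed within -0.021 and 0.0092, and its sign turned without ELA replicate 1.

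Camk2a (ENSRNOG00000018712) was represented by 22630 to 39403 reads per library. It was at 2239, 2632, 2462 and 2063 CPM in control replicates 1 to 4. ELA replicates 1 to 5 had 2288, 2237, 2499, 2011 and 2168 CPM. The rat with the highest level was control replicate 2 and the lowest was ELA replicate 4, but control replicate 4 lay just above the latter. The means were 2349 ± 249 and 2240.4 ± 178 CPM (SD, n = 4 and 5); the log2 fold change was -0.07 (SE 0.082, edgeR adjusted p = 0.88). It was -0.01 without control replicate 2, -0.04 without control replicate 3, -0.03 without ELA replicate 4, -0.13 without control replicate 4, -0.11 without ELA replicate 3 and -0.0012 without ELA replicates 4 and 5.

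Dlg4 (ENSRNOG00000018526) had the smallest p-value of the 7 genes. Control replicates 1 to 4 had 994, 1166, 1078 and 1049 CPM, and ELA replicates 1 to 5 had 1045, 989, 991, 979 and 1009 CPM. All 5 ELA rats lay below the control mean, and the groups overlapped through control replicate 1 alone. The means were 1072 ± 72 and 1002 ± 26.2 CPM (SD, n = 4 and 5); the log2 fold change was -0.10 (SE 0.057, edgeR unadjusted p = 0.116, adjusted p = 0.655). Without control replicate 1 the log2 fold change was -0.13, with an unadjusted p of 0.0416 that did not hold after adjustment (edgeR adjusted p = 0.348). Without control replicate 2 it was -0.05 (edgeR unadjusted p = 0.377, adjusted p = 0.919). In bulk tissue, fewer cells of a type and less RNA per cell cannot be told apart for any of these genes.

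**Figure D2:**
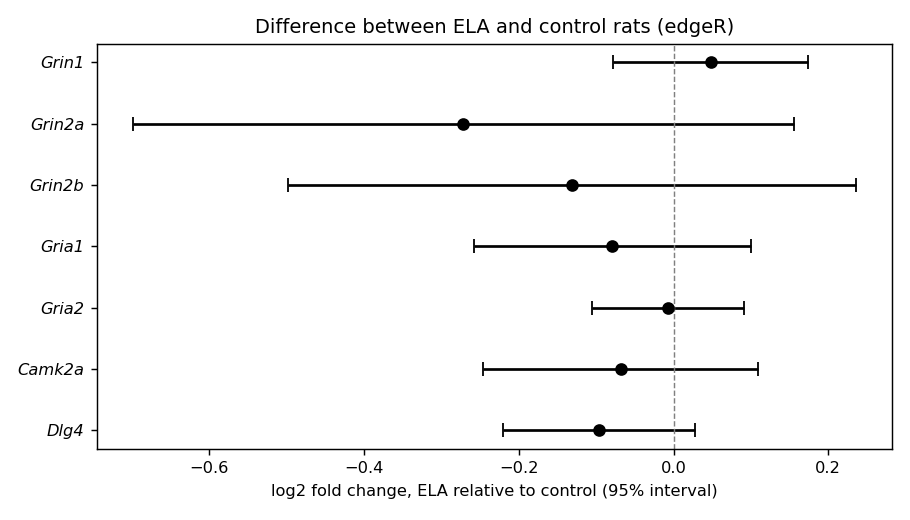
Log2 fold change of ELA relative to control rats for each gene (points), with its 95% interval from edgeR (bars); the dashed line marks no difference. All 7 intervals include 0, and the widest are those of Grin2a (-0.70 to 0.16) and Grin2b (-0.50 to 0.24).

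The intervals bound what these 9 rats leave possible. For 6 of the 7 genes the 95% interval excluded a change of more than 1.5-fold either way, against 80.1% of all genes tested, and for 5 of the 7 a change of more than 1.2-fold, against 40.9% of all genes. The exceptions at 1.2-fold were Grin2a and Grin2b. Each interval is for a single gene, with no correction for testing many.

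The ratio of Grin2a to Grin2b reads asks whether the balance of the GluN2 subunit transcripts differed with rearing. A ratio of 2 genes in a library does not depend on how the library is scaled, and transcript length cancels when rats are compared. Control replicates 1 to 4 had 3.40, 3.21, 3.29 and 3.48 Grin2a reads per Grin2b read. ELA replicates 1 to 5 had 3.06, 3.17, 3.15, 2.80 and 2.89. All 5 ELA rats lay below all 4 control rats, although each gene alone overlapped.

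Control rats averaged 3.34 ± 0.118 and ELA rats 3.01 ± 0.162 (SD, n = 4 and 5). On the log2 scale the difference was -0.15, a ratio 9.92% lower in ELA rats, with a 95% interval from -0.27 to -0.04 obtained by inverting the permutation test. The difference passed a two-sided exact permutation test (p = 0.0159, the smallest that 126 assignments of the libraries allow, and 0.0317 after Benjamini-Hochberg adjustment over the 2 ratios examined). Counting error was of a size with the spread between rats: the exact binomial (Clopper-Pearson) 95% interval was 3.17 to 3.83 for control replicate 4, which had the highest ratio, and 2.48 to 3.16 for ELA replicate 4, which had the lowest. For the nearest rats of the 2 groups it was 2.92 to 3.53 for control replicate 2 (ratio 3.21) and 2.89 to 3.49 for ELA replicate 2 (ratio 3.17). The gap that keeps the groups apart, between these 2 rats, was thus well within counting error. These intervals cover counting error only, and reads are not independent molecules. Within a group, the chi-square of the read counts divided by its degrees of freedom was 0.564 for control and 1.05 for ELA rats, where counting error alone gives about 1.

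**Figure D3:**
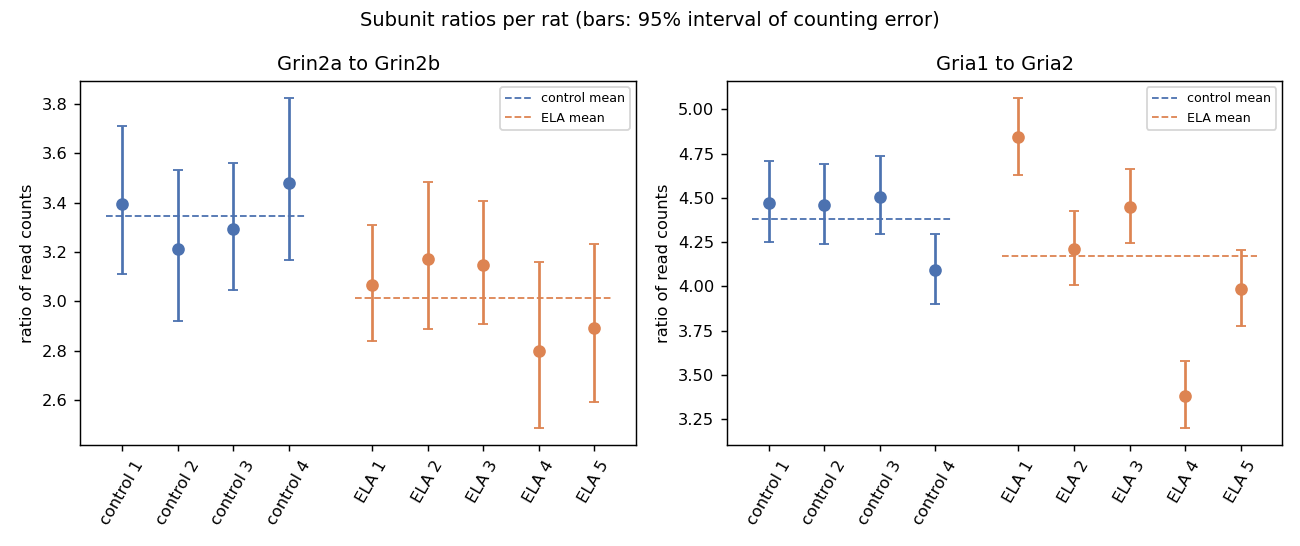
Reads of Grin2a per read of Grin2b (left) and of Gria1 per read of Gria2 (right) in each rat, with exact binomial 95% intervals for counting error (bars) and the group means (dashed lines); the vertical axes do not start at 0. On the left the control rats lie between 3.21 and 3.48 and the ELA rats between 2.80 and 3.17, while on the right the groups overlap.

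The Grin2a to Grin2b ratio was also set against how the reads of a library were assigned. Across the 9 libraries the log2 ratio was lower where more records aligned to several places (Pearson r = -0.825, exact permutation p = 0.00643, adjusted p = 0.0286 over 8 relations; Spearman rho = -0.717, exact permutation p = 0.0369, adjusted p = 0.147). Without the 2 libraries farthest from the median share, r was -0.689. This share was 17.4, 18.4, 17.0, 19.9 and 21.1% in ELA replicates 1 to 5. In control replicates 1 to 4 it was 16.9, 18.7, 18.1 and 14.3%. Within the controls the order was the exact reverse, from control replicate 4 with the smallest share and the highest ratio to control replicate 2 with the largest share and the lowest ratio. Within the groups, r was -0.947 over the control rats and -0.799 over the ELA rats (n = 4 and 5). The ratios in both groups varied about as much as counting error gives (chi-square per degree of freedom 0.564 and 1.05). The order of single rats within either group therefore says little. Among ELA rats, replicates 4 and 5 had the largest shares and the lowest ratios. ELA replicate 2 had a larger share than ELA replicates 1 and 3 and the highest ratio of the ELA rats. ELA replicate 5 had a larger share than ELA replicate 4 and also a higher ratio.

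With a linear term for this share, the difference between the groups shrank to -0.10 on the log2 scale and did not pass after adjustment (permutation of the group label, two-sided p = 0.0476, adjusted p = 0.0952 over the 2 ratios). With a term for the share of records assigned to genes, which was related to the ratio as strongly (r = 0.826, exact permutation p = 0.00715), it was -0.10 as well and passed (permutation p = 0.0159, adjusted p = 0.0317). It also passed with a term for reads assigned to genes (-0.16) and for the share of records outside genes (-0.11; permutation p = 0.0159, adjusted p = 0.0317 for each). These permutations moved the group label alone, so they do not hold fixed how a library measure differed between the groups. Without ELA replicates 4 and 5 together the difference was -0.10, with the groups still apart. Its two-sided exact permutation p was 0.0571, the smallest this smaller set allows. Without control replicate 1 the difference was -0.14 (exact permutation p = 0.0357, again the smallest allowed, and 0.0714 adjusted over the 2 ratios).

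The Gria1 to Gria2 ratio, the balance of the AMPA receptor subunit transcripts, gave no such separation. It was 4.47, 4.46, 4.51 and 4.09 in control replicates 1 to 4. ELA replicates 1 to 5 had 4.84, 4.21, 4.45, 3.38 and 3.99. ELA rats held both the highest and the lowest value, and the ratio in ELA replicate 4 was low through Gria1, since its Gria2 level lay within the controls. The means were 4.38 ± 0.195 and 4.17 ± 0.544 (SD, n = 4 and 5). The log2 difference was -0.08 with a 95% interval from -0.40 to 0.12 (two-sided exact permutation p = 0.508), -0.01 without ELA replicate 4 and 0.04 without ELA replicates 4 and 5. The read counts of ELA rats gave a chi-square of 26.3 per degree of freedom, against about 1 for counting error alone. Of the 4 library measures set against this ratio, it moved with the number of reads assigned to genes (r = 0.783, exact permutation p = 0.0182, adjusted p = 0.0485 over 8 relations; rho = 0.533, exact permutation p = 0.148, adjusted p = 0.295), but r was 0.199 without the 2 libraries farthest from the median, so the relation rests on those libraries.

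Over all 21 pairs of the 7 genes, the Grin2a to Grin2b ratio was the only one whose groups did not overlap (4.76% of the pairs) and the only one with an unadjusted exact permutation p under 0.05. After adjustment over the 21 pairs none passed (0 of 21, or 0%; smallest adjusted exact permutation p = 0.333, the least that a single pair at the smallest p could reach). The next smallest p-value was that of Grin1 to Gria1, whose log2 ratio averaged -0.30 in control and -0.16 in ELA rats, a difference of 0.13 (two-sided exact permutation p = 0.111, adjusted p = 0.556).

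The genes fell into patterns that ran across rearing groups. Grin2a and Grin2b rose and fell together over the 9 rats (Pearson r = 0.968, exact permutation p = 3.31e-05, adjusted p = 0.000694 over 21 pairs; Spearman rho = 0.967, exact permutation p = 0.000165, adjusted p = 0.00347). Without the 2 rats farthest from the median of Grin2a, r was 0.941. Of the 13905 other genes with a mean of at least 1 CPM, only 2 had a profile closer to that of Grin2a than Grin2b did, and 1 had a profile closer to that of Grin2b than Grin2a did.

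Gria1 ran with both GluN2 genes. Its r was 0.897 with Grin2a (exact permutation p = 0.00038, adjusted p = 0.00266) and 0.908 without the 2 farthest rats, with a rho of 0.833 (exact permutation p = 0.00827, adjusted p = 0.0579). With Grin2b its r was 0.874 (exact permutation p = 0.000201, adjusted p = 0.00211) and 0.962 without the 2 farthest rats, with a rho of 0.883 (exact permutation p = 0.00308, adjusted p = 0.0323). With levels centred on the group means, these 3 pairs again were the ones to pass by Pearson's r (3 of 21), with r = 0.984, 0.889 and 0.863.

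**Figure D4:**
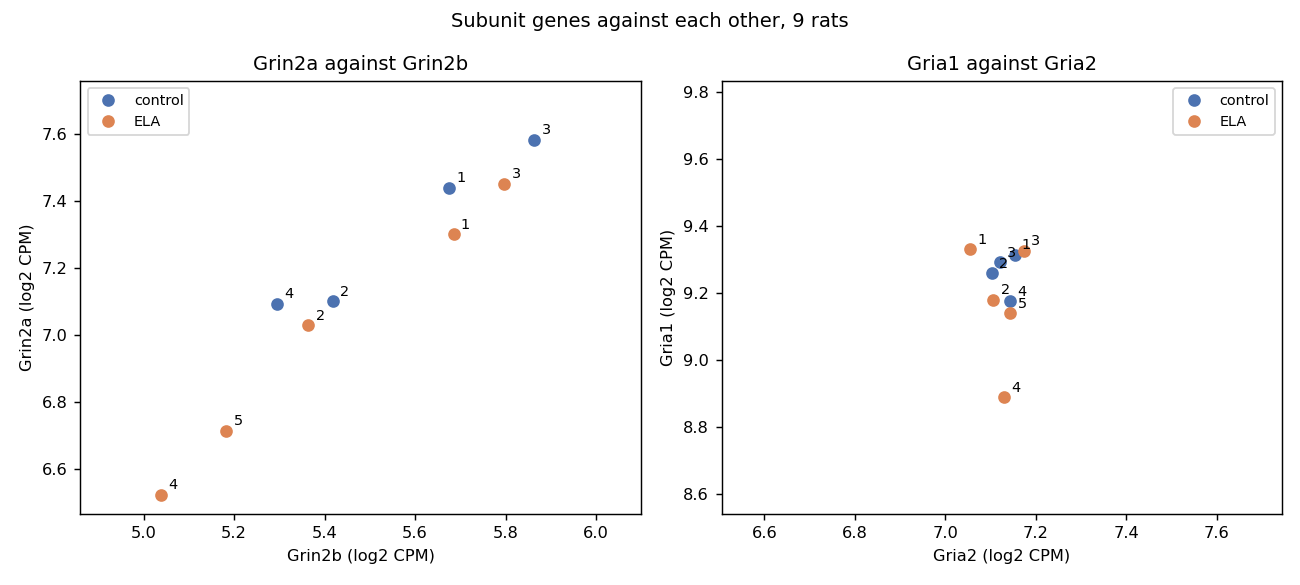
Log2 CPM of Grin2a against Grin2b (left) and of Gria1 against Gria2 (right) in each rat, with control rats in blue, ELA rats in orange and replicate numbers beside the points; both axes of a panel cover nearly the same log2 range. On the left the points follow a line (r = 0.968) with the ELA points below the control points at a like Grin2b level, and on the right Gria2 hardly varies.

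Gria2 did not vary by a like amount. The SD of its log2 CPM over all libraries was 0.034, against 0.351 for Grin2a, 0.288 for Grin2b and 0.141 for Gria1. At 1577 to 2291 Gria2 reads per library, counting error can account for much of so small a spread. The correlations of Gria2 therefore cannot show whether it shared the pattern on a smaller scale. Its r was 0.0044 with Grin2a, -0.04 with Grin2b and -0.12 with Gria1, its fellow AMPA receptor gene (exact permutation p = 0.991, 0.916 and 0.729). The rho values were 0.117, -0.05 and -0.083 (exact permutation p = 0.776, 0.912 and 0.843), and r without the 2 farthest rats was 0.0977, 0.018 and -0.014. Grin1 had r = 0.476 with Grin2a and 0.520 with Grin2b (exact permutation p = 0.195 and 0.155, 0.409 and 0.361 after adjustment), with a rho of 0.517 and 0.6 (exact permutation p = 0.162 and 0.0968) and an r of 0.570 and 0.721 without the 2 farthest rats. Camk2a and Dlg4 had r = 0.616 (exact permutation p = 0.0747, adjusted p = 0.224) and rho = 0.500 (exact permutation p = 0.178), with an r of 0.566 without the 2 farthest rats.

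**Figure D5:**
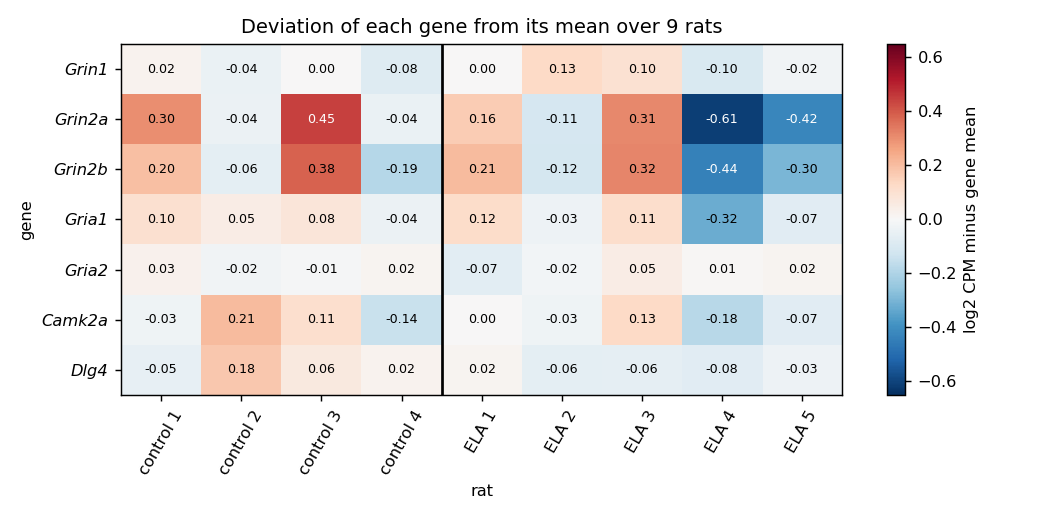
Log2 CPM of each gene (rows) in each rat (columns) minus the mean of that gene over the 9 rats; red is above and blue below the mean, and the black line divides control from ELA rats. Grin2a and Grin2b share their highs in control replicate 3 (0.45 and 0.38) and their lows in ELA replicate 4 (-0.61 and -0.44), and the Gria2 row stays between -0.07 and 0.05.

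The 7 genes also differed in how much rats of 1 group varied. The within-group SD of log2 CPM was 0.334 for Grin2a and 0.296 for Grin2b, and it was smaller in 98.1% and 97.1% of the genes in the upper tertile of mean expression. For Gria2 it was 0.037, with a smaller SD in only 1.78% of those genes. Grin1 (0.077) and Dlg4 (0.069) lay below the median of 0.096 in that tertile, and Gria1 (0.142) and Camk2a (0.133) above it. Averaged over the 7 genes, the mean deviation in log2 CPM was highest in control replicate 3 (0.15) and ELA replicate 3 (0.14) and lowest in ELA replicates 4 and 5 (-0.25 and -0.13). The group means of this level differed by -0.09, or by -0.04 without ELA replicate 4. Of the other genes with a mean of at least 1 CPM, the 2 whose profile over the 9 rats was closest to the mean standardised profile of the 7 were ENSRNOG00000016505 (r = 0.968) and ENSRNOG00000020762 (r = 0.951), which have no symbol here.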

How the data were processed

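The authors deposited raw read counts per Ensembl gene, 1 file per rat. The submitters' processing notes name STAR 2.5.0, HTSeq 0.6.1 and build rn6; annotation release and strand setting were not given in the sources used here, so reads of overlapping genes may be joined or lost. The 5 summary entries of each file (34.3 to 38.1% of its records) were kept out. In R 4.3.3, edgeR 4.0.16 filtered by filterByExpr, scaled by TMM and ran the robust quasi-likelihood test on all 9 libraries with Benjamini-Hochberg adjustment, tested on simulated data. Ratios and correlations used all assignments of the libraries (scipy 1.17.1). DESeq2 1.42.0, limma 3.58.1, other scalings, other filters, replicate blocks and leaving out libraries were alternatives. The members and lists were chosen with earlier results of these data known. The named genes are the 7 members, called or not, and the 2 identifiers closest to their mean profile. Lists of other receptor and marker genes, written by symbol, were not analysed here because no table pairs symbols with the identifiers. No 2 libraries agreed within sampling noise (chi-square per degree of freedom 3.93 to 21.9). Reads per library (11049282 to 17089188) limit precision most for Grin2b.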

Additional observations from a re-analysis of the deposited data

Results flagged for a closer look

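Dixon's ratio was used to look for a rat far from the rest of its group. It was applied to 20 sets of values (the 7 levels, their mean and the 2 ratios, in each group), and about 1 in 20 would pass by chance. A single one did: the log2 ratio of Gria1 to Gria2 was 2.03 in control replicate 4, against 2.16 to 2.17 in the other control rats.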

How the results depend on the processing

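The count of 0 called genes among the 7 held under all 20 alternatives, with a smallest adjusted p of 0.287 (limma-voom with sample weights). Of 140 single-gene values, 136 kept their direction, and 4 turned: Gria2 (0.0089 with a replicate block by description number, and 0.0092 without ELA replicate 1, the other single libraries giving down to -0.021), Grin2b (0.051) and Gria1 (0.023) without ELA replicates 4 and 5, which also turned the Gria1 to Gria2 ratio (0.037). Over all genes, 6 were called, and 1 to 305 under the alternatives. The log2 difference of the Grin2a to Grin2b ratio was between -0.17 and -0.12 with any 1 library left out, where its adjusted p of 0.0571 to 0.0714 was the smallest this design allows, given the p of the other ratio. With a replicate block it was -0.14 by title number and -0.16 by description number (exact permutation p = 0.125 in both, the smallest that 4 pairs allow). The difference was -0.10 without ELA replicates 4 and 5. With a term for the share of records aligned to several places it was -0.10 and did not pass. With a term for each of the other library measures it was between -0.16 and -0.10 and passed (permutation of the group label, adjusted p = 0.0317). Deviations of same-numbered libraries correlated at -0.13 to 0.24 by title number and -0.17 to 0.24 by description number. With 4 pairs by each numbering, this cannot settle whether the numbers pair the rats. With the block by title number 1 gene was called in all, and 78 by description number. Grin2a had a log2 fold change of -0.22 with the block by title number (edgeR unadjusted p = 0.0243, adjusted p = 0.36). With the block by description number it was -0.37 (edgeR unadjusted p = 0.0904, adjusted p = 0.598). The pair ratios called stayed at 0 with each library left out, and the correlated pairs at 3 with library size only or centring. The fit without ELA replicates 4 and 5, the terms for library measures and the ratio block by description number were chosen after seeing the data.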
